A study of Mus musculus with 12 samples.

Results

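The response of male (XY) hypothalamic neurospheres to dexamethasone, a synthetic glucocorticoid, was described across protein-coding genes. The members are set by a rule on biotype and on the mean level over both treatments together. They are single-gene protein-coding loci of the deposited expression table whose level averaged 1 FPKM or more across the 6 male libraries. FPKM counts fragments per kilobase of transcript, scaled to the number of fragments mapped in the library, so levels can be compared between genes. Of 21337 such protein-coding loci, 10565 reached that mean, and 5 of them were left out because every library of a group was listed at 0, which left 10560 members among the 40597 loci of the table. Ephx2 lay just inside the level threshold with 1.0 FPKM and Letm2 just outside it with 0.99993 FPKM.

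All cultures came from the hypothalamus of wild-type C57Bl/6 fetuses at embryonic day 14.5 and were grown as neurospheres to passage 3. Male cultures with dexamethasone had 100 nM of the steroid for 4 hours, and male vehicle cultures had ethanol in the same volume for that time. Each group had 3 libraries, numbered 1 to 3, and libraries of the same number are called a pair here. Female cultures of the same strain, age and passage, with 3 libraries under each treatment, entered the model and serve as a second set of cultures. The labels call the libraries biological replicates without saying what was replicated, so p-values reflect only how far these libraries spread. Absolute depth is unknown, since FPKM carry no counts.

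As background, the glucocorticoid receptor, encoded by Nr3c1, waits in the cytoplasm in a complex with heat shock chaperones and moves to the nucleus when it binds a steroid. There it binds a palindromic DNA element near many of the genes it induces, and it lowers other genes partly through contacts with factors such as AP-1 and NF-kB. Neurospheres are floating clusters of neural stem and progenitor cells. Synthetic glucocorticoids cross the placenta and are given before preterm birth, and fetal neural progenitors carry the receptor.

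The male libraries carried progenitor transcripts. All 12 neural stem cell markers had a mean of at least 1 FPKM, with summed levels of 6422 to 7088 FPKM in vehicle and 5928 to 6680 FPKM in dexamethasone libraries. All 7 astrocyte markers passed that level, with sums of 262 to 561 FPKM in vehicle and 339 to 919 FPKM with dexamethasone, as did 6 of 6 oligodendrocyte lineage markers in the table and 4 of 10 neuronal markers. None of 8 microglial markers and none of 6 erythroid markers did, and C1qa, Tyrobp and 4 globin genes were at 0 in every male library. No marker of any of these cell types was called. Protein-coding loci summed to 398140 to 424570 FPKM in vehicle and 418940 to 434350 FPKM in dexamethasone libraries (exact two-sided permutation test, p = 0.2, where 3 against 3 libraries cannot go below 0.1). Loci without a gene name took 11.6%, 14.2% and 75% of all FPKM in vehicle libraries 1 to 3, and 12.1%, 53.1% and 38.6% in dexamethasone libraries 1 to 3. Pair 2 stood apart in Xist, the RNA of the inactive X chromosome: 3.04 FPKM in vehicle and 14.1 FPKM in dexamethasone library 2, against at most 0.0466 FPKM in the other 4 male libraries and 136 to 328 FPKM in female libraries. The Y-linked helicase gene Ddx3y was at 16.6 to 22.6 FPKM in every male library. The libraries labelled male in pair 2 may therefore not be purely XY, which was not tested. Without pair 2, 5 members were called, and none of the genes with log2 changes given below moved by more than 0.24, the shift of Ptk2b.

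Dexamethasone changed 126 of the 10560 members, 85 upward and 41 downward. That is 1.19% of members, 0.805% higher and 0.388% lower, where 0.983% of all 14142 loci tested were called, 0.665% higher and 0.318% lower. The rises were larger: the median change on the log2(FPKM + 1) scale was 0.98 for genes called higher and -0.53 for genes called lower, against -0.01 over all members. Mean levels at least doubled with dexamethasone for 52 of the 85 and reached 4 times the vehicle mean for 18, while 2 of the 41 fell at least 2-fold. Levels of called genes ran from 1.16 FPKM to 711 FPKM, the level of Mt1. A mean over both groups can be reached through 1 of them: 96 members averaged under 1 FPKM in vehicle and could be members only by being higher with dexamethasone, and 7 of them were called (Fam107a, Hif3a, Zbtb16, Cftr, Kcnt1 and, named after their values were seen, Camkk1 and Rasgef1c). In the other direction 78 members averaged under 1 FPKM with dexamethasone, and 0 of these were called. Calls are at an adjusted p under 0.05 from limma, with the replicate number within each sex as a block, and 1927 members had an unadjusted p under 0.05.

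The direction was shared by all 3 male pairs for each of the 126 called genes, where 44.8% of all members moved one way in all pairs. Dexamethasone and vehicle libraries did not overlap for 76 of the 85 genes called higher and for 21 of the 41 called lower, against 13.4% of members. The calls were made on these same pairs, so shared direction and lack of overlap follow in part from the calls. They are not separate support for them. The number of calls depended on single libraries. With pair 1, 2 or 3 left out, or with either library of that pair left out, 9, 5 or 11 members were called, all higher, and all 126 genes kept their direction. Under the block a library without its partner gives no estimate. The 6 fits that leave out 1 male library therefore repeat the 3 that leave out a pair, and are not 6 separate checks. With libraries scaled to equal protein-coding totals the split was 78 higher and 74 lower, so 51.3% of calls were higher against 67.5% otherwise, and the median over all members was -0.06. With the 6 male libraries fitted alone, which leaves 2 residual degrees of freedom, 0 members were called by limma and 1804 had an unadjusted p under 0.05, while testing protein-coding loci alone gave 358 calls.

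**Figure D1:**
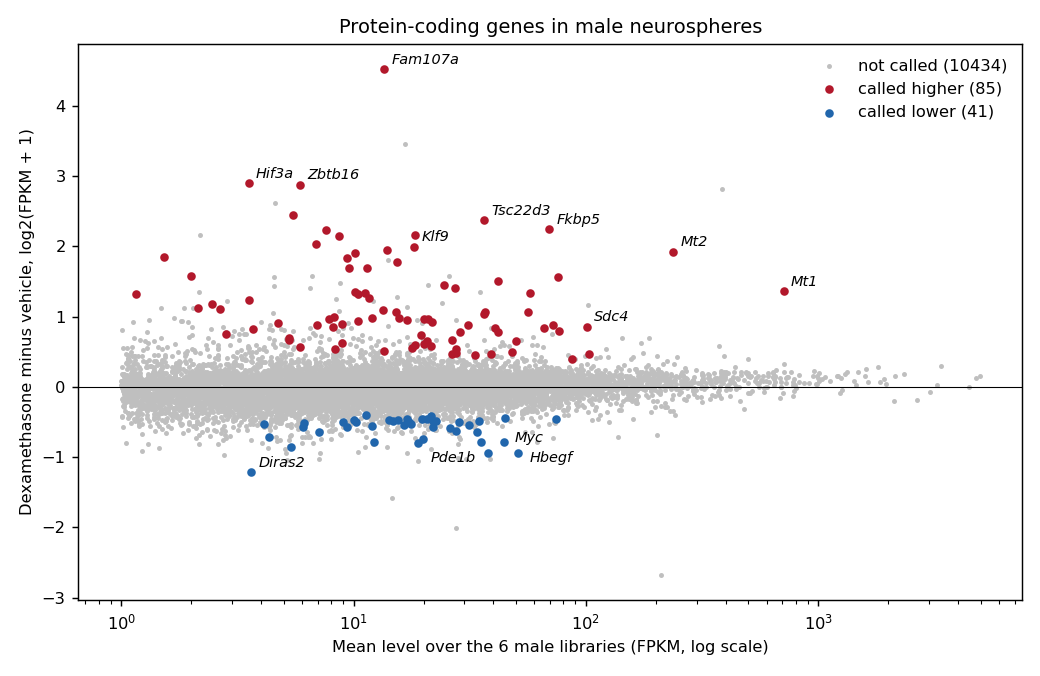
Change with dexamethasone in male cultures, as the difference of log2(FPKM + 1) from the fitted model, against the mean level over the 6 male libraries in FPKM on a log axis. Each point is 1 of 10560 members, in red for the 85 called higher, blue for the 41 called lower and grey for the rest; rises reach 4.52 (Fam107a) and called falls reach -1.22 (Diras2).

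The threshold fell among genes of unequal size of change. Larp1, Per2 and Egr1 lay just inside it with adjusted p-values of 0.0481, 0.0485 and 0.0497. Rhoj, a small GTPase gene, lay just outside with 0.0512 although its mean was 10.9 FPKM in vehicle and 31.1 FPKM with dexamethasone, followed by Phlda1 and Ccdc15 with 0.0513 each. Larp1, Rhoj, Phlda1 and Ccdc15 are named only for their place at the threshold.

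The transcript of the receptor itself was not called, while Fkbp5 and Tsc22d3 rose. Nr3c1 stood at 19.7, 19.8 and 16.1 FPKM in vehicle libraries 1 to 3 and at 16.8, 14.9 and 15.2 FPKM with dexamethasone (log2 change -0.23 ± 0.09 SE, adjusted p = 0.311). The mineralocorticoid receptor transcript Nr3c2 averaged 1.64 ± 0.297 FPKM (SD, n = 3) in vehicle and 0.993 ± 0.89 FPKM (SD, n = 3) with dexamethasone. Fkbp5 (chr17:28399094-28517527, minus strand) encodes an Hsp90 co-chaperone that lowers the receptor's affinity for steroid. Its vehicle libraries held 25.5, 23.0 and 20.7 FPKM and its dexamethasone libraries 157, 94.9 and 96.3 FPKM. The groups were far apart, with the highest level in library 1, and Fkbp5 rose by 2.25 ± 0.12 (SE, adjusted p = 0.00717), 5.03-fold in means. Tsc22d3 (chrX:140539528-140600659, minus strand) encodes GILZ, a leucine zipper protein that mediates anti-inflammatory effects of glucocorticoids. It went from 10.9, 10.9 and 8.94 FPKM to 104, 45.2 and 39.2 FPKM, with library 1 again highest, a rise of 2.37 ± 0.25 (SE, adjusted p = 0.0269). The other receptor machinery on the list, chaperones and coregulators, gave 0 calls among 19 genes tested with limma, where 1.19% of all members were called. Of the 19, 0 had an unadjusted p under 0.05, and their median change was -0.08. Hsp90ab1, the most abundant of them, had 1246 to 1293 FPKM in vehicle and 1158 to 1278 FPKM with dexamethasone. Fkbp5 was called with any 1 male library left out (adjusted p at most 0.0423), and Tsc22d3 in none of those 6 fits.

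Transcription factors were among the called rises. Klf9 (chr19:23141226-23168134, plus strand), a Krüppel-like factor that restrains proliferation in neural cells, had 5.67, 7.27 and 7.28 FPKM in vehicle and 30.2, 30.4 and 28.5 FPKM with dexamethasone. All 3 dexamethasone libraries were nearly level, and the rise was 1.99 ± 0.09 (SE, adjusted p = 0.00555). Per1 (chr11:69095217-69109960, plus strand), a clock gene whose protein represses its own activators, went from 3.82, 4.35 and 7.44 FPKM to 19.6, 18.8 and 29.7 FPKM. Library 3 was highest in both groups, and Per1 rose by 1.95 ± 0.07 (SE, adjusted p = 0.00516). Per2, its paralog, was lower and moved less, from 2.09, 2.55 and 2.46 FPKM to 3.60, 5.22 and 6.26 FPKM (0.82 ± 0.11 SE, adjusted p = 0.0485).

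Zbtb16 (chr9:48654297-48836222, minus strand) encodes PLZF, a zinc finger repressor. It was scarce without the steroid, at 0.437, 0.418 and 1.15 FPKM, and reached 13.1, 9.96 and 10.2 FPKM with it, 16.6-fold in means (2.88 ± 0.22 SE, adjusted p = 0.0145). Hif3a (chr7:17031507-17062427, minus strand), a hypoxia-inducible factor subunit whose short forms restrain the others, was nearly absent in vehicle at 0.0300, 0.0742 and 0.0765 FPKM. Its dexamethasone libraries held 7.87, 5.15 and 8.06 FPKM, 117-fold more in means, and as log2(FPKM + 1), where the added 1 shrinks the change of scarce transcripts, it rose by 2.90 ± 0.16 (SE, adjusted p = 0.00717). Klf13, a further Krüppel-like factor, doubled from 10.1 ± 1.78 to 21.1 ± 5.21 FPKM (SD, n = 3; log2 change 0.98 ± 0.09 SE, adjusted p = 0.0201). Of these 6 factors, Klf9 and Per1 were called with any 1 male library left out, Hif3a in 4 of 6 such fits, Zbtb16 in 2 and Klf13 and Per2 in none. Klf13 and Per2 were also not called without the block. Of 20 clock genes tested, Per1 and Per2 were called, where 1.19% of all members were called. Among the 20, 10 changes lay above 0 and 10 below, and the median change was 0.00. At an unadjusted p under 0.05, 4 of the 20 were higher, Per1 and Per2 among them, and 4 lower.

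**Figure D2:**
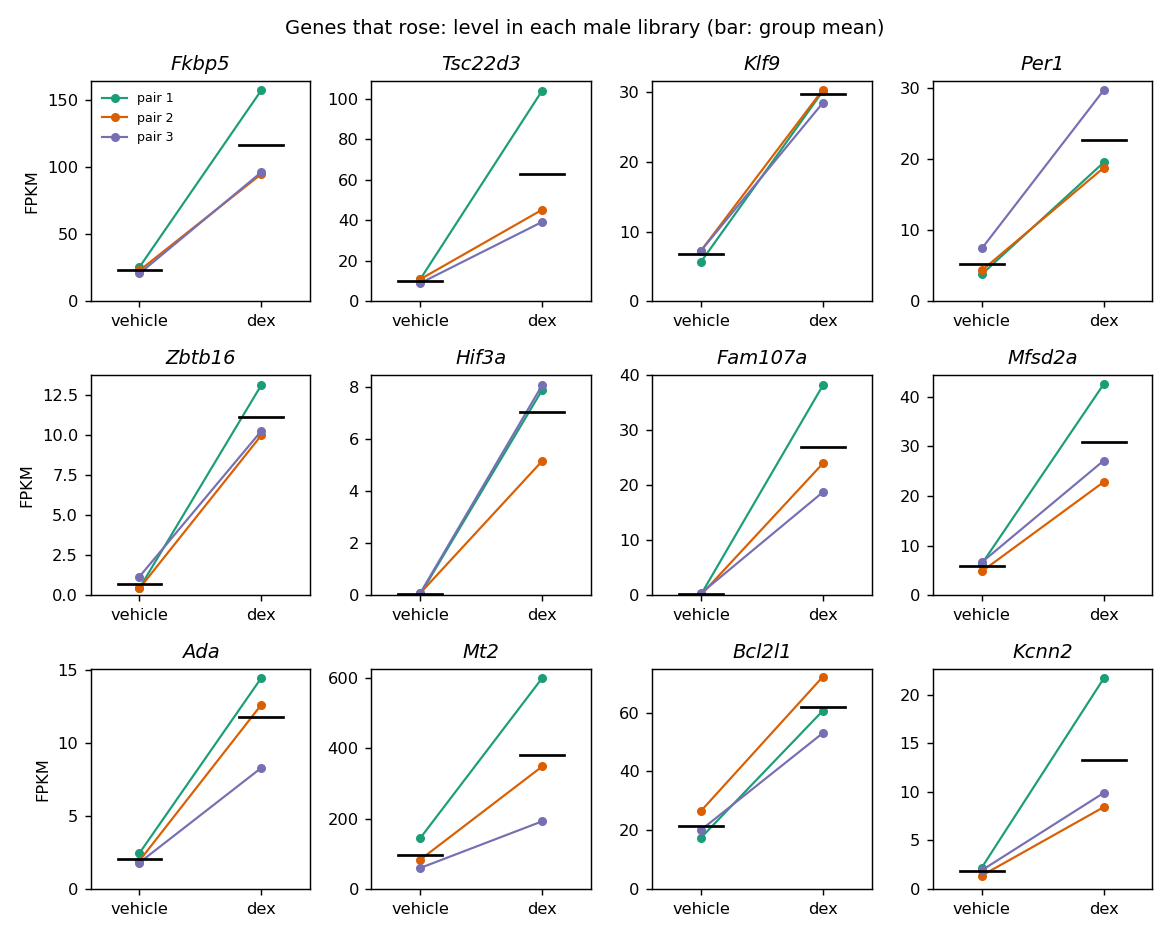
Level in FPKM of 12 genes that rose, in each male vehicle and dexamethasone library; lines join the libraries of a pair and black bars are group means. Every line goes up and the groups do not overlap in any panel. Pair 1 (green) ends highest for Fkbp5, Tsc22d3, Zbtb16, Fam107a, Mfsd2a, Ada, Mt2 and Kcnn2 but not for Klf9, Per1, Hif3a or Bcl2l1. Zbtb16, Hif3a and Fam107a could be members only by being higher with dexamethasone.

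Fam107a had the largest rise of all members called. Its product binds actin and is known from stress and glucocorticoid treatment in the brain, and the gene spans chr14:8296274-8318023 on the minus strand. Vehicle libraries were close to 0, at 0.127, 0.0541 and 0.343 FPKM, and dexamethasone libraries were at 38.1, 23.9 and 18.7 FPKM. The ratio of means was 154, and as log2(FPKM + 1) Fam107a rose by 4.52 ± 0.27 (SE, adjusted p = 0.00717). It was called in 4 of the 6 fits with 1 male library left out, with adjusted p-values from 0.0209 to 0.0759.

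Promoter windows are shown for 4 genes that rose and hold the core of the glucocorticoid response element, written ACANNNTGT, in the 250 bases before the transcript start. The sequences are from RefSeq on GRCm38.p6, 5′ to 3′ on the strand of the gene, with the motif in capitals. The starts are those of the RefSeq table, which can differ from other annotated starts of a gene.
Fam107a, chr14:8309780-8310029, minus strand: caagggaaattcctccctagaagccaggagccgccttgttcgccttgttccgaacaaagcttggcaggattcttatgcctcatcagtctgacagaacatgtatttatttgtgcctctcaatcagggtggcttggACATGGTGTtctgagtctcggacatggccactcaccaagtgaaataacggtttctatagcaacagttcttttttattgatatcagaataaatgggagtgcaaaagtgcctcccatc
Mt1, chr8:94178839-94179088, plus strand: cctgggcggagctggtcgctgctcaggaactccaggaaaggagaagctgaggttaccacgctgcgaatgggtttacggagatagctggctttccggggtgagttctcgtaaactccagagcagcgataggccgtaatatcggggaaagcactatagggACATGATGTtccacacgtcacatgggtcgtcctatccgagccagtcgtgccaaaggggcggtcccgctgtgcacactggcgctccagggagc
Bcl2l1, chr2:152828490-152828739, minus strand: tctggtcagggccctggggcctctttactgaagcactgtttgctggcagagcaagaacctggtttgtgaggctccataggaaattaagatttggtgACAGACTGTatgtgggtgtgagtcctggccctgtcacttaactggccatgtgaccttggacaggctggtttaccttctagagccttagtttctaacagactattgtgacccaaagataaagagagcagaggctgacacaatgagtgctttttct
Hopx, chr5:77115124-77115373, minus strand: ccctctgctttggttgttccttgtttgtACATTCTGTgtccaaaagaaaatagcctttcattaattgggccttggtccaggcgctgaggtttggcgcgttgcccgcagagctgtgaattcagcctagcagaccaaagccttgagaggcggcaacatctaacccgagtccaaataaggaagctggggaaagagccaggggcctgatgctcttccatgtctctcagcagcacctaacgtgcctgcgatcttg
The core starts 116 bases before the transcript start in Fam107a, 92 in Mt1, 154 in Bcl2l1 and 222 in Hopx.

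Windows of 300 bases, from 250 before to 50 after the start, were found for 70 of the 85 genes called higher and 30 of the 41 called lower, matched by symbol. On either strand the core ACANNNTGT was in 6 of the 70 (8.57%), which besides the 4 printed were Map7d2 and Nek7, and in 3 of the 30, Dhx33, N4bp1 and Wiz. It was in 4.6% of all members matched and in 7.9% of all genes in the RefSeq table. A gene was counted if any window under its symbol held the motif. The full element, AGAACA and its reverse complement with 3 bases between them, was in none of the called genes' windows and in 1 of 7920 members matched. The hexamer AGAACA was in 14.3% of matched genes called higher, 26.7% of those called lower and 14% of all members matched, counting any that overlap the core. The cyclic AMP element TGACGTCA was in 2.86%, 0% and 3.74% of the same sets. These shares describe the letters in the windows and say nothing about binding of the receptor.

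Called rises included 9 genes of metabolism, metal binding and a secreted peptide. Mfsd2a (chr4:122946850-122961188, minus strand), which carries lysophospholipids with docosahexaenoic acid into the brain, went from 6.30, 4.78 and 6.62 FPKM to 42.5, 22.8 and 27.1 FPKM (2.17 ± 0.14 SE, adjusted p = 0.00887). The lowest dexamethasone library was more than 3 times the highest vehicle library. Thrsp, a regulator of fatty acid synthesis, had 2.85, 1.95 and 2.23 FPKM in vehicle and 24.1, 8.87 and 12.0 FPKM with dexamethasone (2.15 ± 0.23 SE, adjusted p = 0.0266), with library 1 well above the others. Lpin1, a phosphatidate phosphatase and coactivator, went from 21.2 ± 3.29 to 41.1 ± 14.1 FPKM (SD, n = 3; adjusted p = 0.0422). Ada, adenosine deaminase, which clears adenosine, had 2.45, 1.93 and 1.80 FPKM in vehicle and 14.5, 12.6 and 8.29 FPKM with the steroid (2.04 ± 0.14 SE, adjusted p = 0.00996). Gfpt2, the entry enzyme of hexosamine synthesis, followed with 6.70, 3.43 and 8.13 against 36.9, 11.4 and 25.5 FPKM (1.77 ± 0.16 SE, adjusted p = 0.0201). Both groups varied by pair for Gfpt2, with library 2 the lowest in each.

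The metallothionein genes Mt1 (chr8:94179082-94180327) and Mt2 (chr8:94172664-94173568), neighbours on the plus strand whose proteins bind zinc and copper, were the most abundant of the genes called. Mt1 had 464, 408 and 293 FPKM in vehicle and 1397, 1077 and 630 FPKM with dexamethasone, and Mt2 went from 145, 83.2 and 59.6 FPKM to 600, 349 and 192 FPKM. In both genes library 1 was highest and library 3 lowest under either treatment. Mt1 rose by 1.36 ± 0.14 (SE, adjusted p = 0.0252) and Mt2 by 1.92 ± 0.17 (SE, adjusted p = 0.0183). Mt1 and Mt2 are close paralogs whose reads the counting could split, so their separate levels are uncertain. Adm, the gene of the vasodilator peptide adrenomedullin, doubled with little spread, from 14.8 ± 0.634 to 28.8 ± 2.12 FPKM (SD, n = 3; adjusted p = 0.0232). Mat2a, the enzyme that makes S-adenosylmethionine, had the smallest change called, 0.39 ± 0.05 (SE, adjusted p = 0.0439), from 66.6, 75.7 and 82 to 83.8, 96.5 and 117 FPKM. Across these 9 genes, Mfsd2a was called in 4 of the 6 fits with 1 male library left out and Ada and Gfpt2 in 2 each, and the other 6 in none, with adjusted p-values up to 0.203. Without the block, 2 of the 9 were called.

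Called rises also included genes of adhesion, survival and cell surface receptors. Ptk2b, a focal adhesion tyrosine kinase activated by calcium, went from 0.854, 1.84 and 0.307 FPKM to 14.2, 10.1 and 5.58 FPKM (2.45 ± 0.22 SE, adjusted p = 0.0184). Nedd9, a scaffold protein of focal adhesions that binds such kinases, had 4.27, 3.79 and 2.77 FPKM in vehicle and 22.8, 16.8 and 10.5 FPKM with dexamethasone (1.90 ± 0.11 SE, adjusted p = 0.00717). For both genes the order of dexamethasone libraries was 1, 2, 3 from high to low. Sdc4, a heparan sulfate proteoglycan of the cell surface, overlapped between groups: 87.0, 77.4 and 49.1 FPKM in vehicle and 173, 136 and 85.2 FPKM with dexamethasone. Within pairs it rose each time (0.86 ± 0.07 SE, adjusted p = 0.0159). Mertk, a receptor tyrosine kinase for clearing dead cells, went from 4.82 ± 1.25 to 18 ± 5.32 FPKM (SD, n = 3; adjusted p = 0.0317). Lifr, the receptor of leukemia inhibitory factor, a cytokine that sustains neural stem cells and drives astrocyte formation, went from 15.7 ± 1.90 to 24.5 ± 3.45 FPKM (SD, n = 3; adjusted p = 0.0446).

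Bcl2l1 encodes the survival protein Bcl-xL, and its promoter window is printed above. It had 17.4, 26.6 and 20.1 FPKM in vehicle and 60.7, 72.3 and 53.1 FPKM with dexamethasone, a 2.90-fold ratio with groups far apart (1.5 ± 0.08 SE, adjusted p = 0.00717). Sesn1, a sestrin that damps mTORC1 signalling, went from 14.3, 10.8 and 11.8 FPKM to 52.3, 27.6 and 30.0 FPKM (adjusted p = 0.0252). Errfi1, an inhibitor of the EGF receptor, went from 5.15 ± 0.491 to 15.1 ± 5.09 FPKM (SD, n = 3; adjusted p = 0.0423). Lfng, the glycosyltransferase that tunes Notch receptors, was among the more abundant called genes, at 59.2, 58.7 and 47.7 FPKM in vehicle and 116, 101 and 75.8 FPKM with dexamethasone (0.80 ± 0.07 SE, adjusted p = 0.0174). Of the 10 genes of adhesion, survival and receptors described, Fam107a included, 6 were called without the block and 7 in none of the fits that left out 1 male library. The exceptions were Fam107a, Nedd9 and Bcl2l1, each called in 4 of 6 of those fits.

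Of the 20 largest called rises, 3 were ion channel genes with low levels in vehicle. Cftr and Kcnt1 averaged under 1 FPKM there, so they could be members only by being higher with dexamethasone. Kcnn2, a calcium-activated potassium channel, went from 2.2, 1.37 and 1.92 FPKM to 21.7, 8.42 and 9.88 FPKM, with library 1 more than 2 times the others (2.24 ± 0.20 SE, adjusted p = 0.0201). Cftr, the chloride channel mutated in cystic fibrosis, was close to 0 in vehicle, at 0.0945, 0.0257 and 0.150 FPKM, and stood at 3.64, 2.38 and 2.88 FPKM with dexamethasone (1.85 ± 0.12 SE, adjusted p = 0.00996). Kcnt1, a sodium-activated potassium channel, went from 0.316, 1.08 and 0.173 to 2.83, 4.60 and 3.02 FPKM (1.58 ± 0.16 SE, adjusted p = 0.0266). Over the list of 25 ion channel genes tested, 2 were called, Kcnn2 and Cftr, where 1.19% of all members were called. The median change of the list was -0.11. Kcnt1 was not on that list.

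Tprn, whose protein sits at the base of hair cell stereocilia, and Map7d2, which binds microtubules, rose 3.87-fold and 4.30-fold in means (adjusted p = 0.0335 and 0.0159). Hopx, a homeodomain-only protein found in quiescent stem cells and radial glia, doubled from 7.76, 6.84 and 6.07 FPKM to 13.1, 14.6 and 14.5 FPKM (0.94 ± 0.12 SE, adjusted p = 0.0384). Id1, an inhibitor of neurogenic helix-loop-helix factors, overlapped between groups, at 26.9, 25.1 and 15.6 FPKM in vehicle and 36.0, 36.9 and 25.7 FPKM with dexamethasone (adjusted p = 0.0337). Tnpo1, a nuclear import receptor, went from 86.0 ± 5.12 to 120 ± 10.4 FPKM (SD, n = 3; adjusted p = 0.0269). None of these 5 genes or of the channels was called in any fit that left out a male library, with adjusted p-values of 0.058 to 0.203, and 3 of the 8 were called without the block.

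The called falls were smaller, and 9 of those described encode proteins of growth, GTPase or second messenger signalling. Diras2 (chr13:52504380-52531279, minus strand), a small Ras-like GTPase, had the largest called fall: 2.93, 7.87 and 5.69 FPKM in vehicle and 0.809, 2.66 and 1.80 FPKM with dexamethasone. The groups just failed to overlap, with library 2 highest in each, and the fitted log2 change was -1.22 ± 0.08 (SE, adjusted p = 0.00887). Pde1b (chr15:103503034-103530052, plus strand) and Pde3a encode phosphodiesterases that break down cyclic nucleotides, and both fell. Pde1b went from 49.6, 62.5 and 38.1 FPKM to 27.4, 31.8 and 18.1 FPKM (-0.94 ± 0.11 SE, adjusted p = 0.0337), and Pde3a from 7.87, 8.78 and 5.05 FPKM to 3.86, 3.88 and 2.77 FPKM (-0.85 ± 0.09 SE, adjusted p = 0.0276). Both genes were without overlap. They were the called members among 28 genes of cyclic nucleotide signalling, whose median change was -0.12. Of all members, 0.388% were called lower.

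Hbegf, a ligand of the EGF receptor, had 40.3, 111 and 52.7 FPKM in vehicle and 18.2, 53.9 and 31.9 FPKM with dexamethasone. The spread between cultures exceeded the change, since dexamethasone library 2 lay above vehicle libraries 1 and 3, and the call rests on the pairs (-0.95 ± 0.13 SE, adjusted p = 0.0414). Irs1, the adaptor of insulin and IGF receptors, went from 11.8 ± 2.83 to 8.28 ± 2.38 FPKM, with overlap (SD, n = 3, adjusted p = 0.0369). Myc, a driver of growth and ribosome production, had 45.0, 53.6 and 68.9 FPKM in vehicle and 25.1, 26.6 and 46.8 FPKM with dexamethasone (-0.78 ± 0.10 SE, adjusted p = 0.0395), and dexamethasone library 3 overlapped the vehicle group. Egr1, an immediate early zinc finger gene, went from 16.9, 32.1 and 30.3 FPKM to 12.0, 18.2 and 22.0 FPKM, with overlap (-0.57 ± 0.08 SE, adjusted p = 0.0497). Stk40, a kinase-like protein, and Arl4a, a small GTPase at the membrane, fell without overlap (-0.64 and -0.79, adjusted p = 0.0146 and 0.0159).

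**Figure D3:**
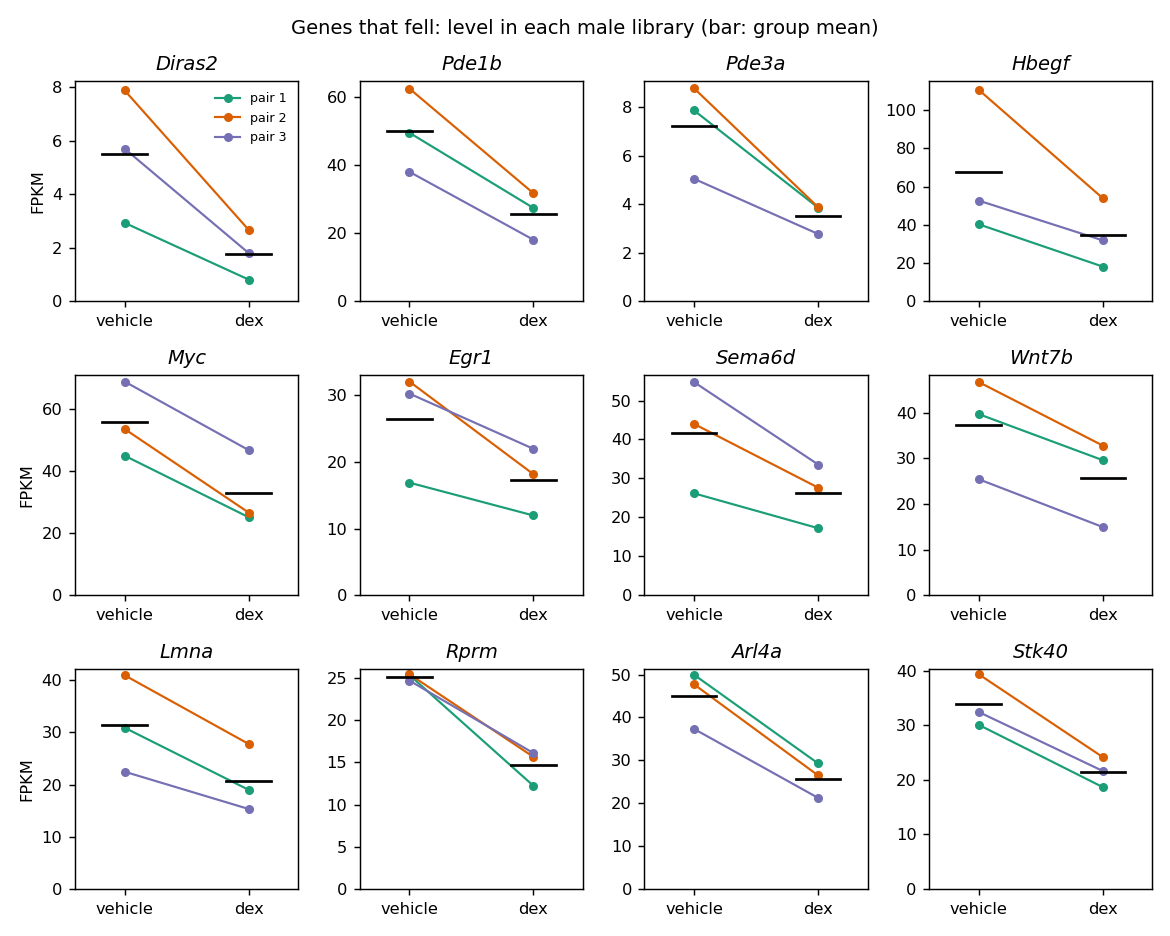
Level in FPKM of 12 genes that fell, in each male vehicle and dexamethasone library; lines join the libraries of a pair and black bars are group means. Every line goes down, while for Hbegf, Myc, Egr1, Sema6d, Wnt7b and Lmna the highest dexamethasone library lies above the lowest vehicle library.

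A further 9 called falls were in genes of cell shape, adhesion, matrix or guidance. Mfap3l, a membrane protein of the microfibril-associated family, went from 19.1, 36.5 and 17.5 to 9.38, 20.5 and 11 FPKM (-0.80 ± 0.08 SE, adjusted p = 0.0266). Adam19, a membrane metalloprotease that sheds growth factors, went from 15.7 ± 5.89 to 8.90 ± 4.34 FPKM (SD, n = 3; -0.79 ± 0.10 SE, adjusted p = 0.0414). Sema6d, a semaphorin that guides axons, had 26.1, 44.0 and 54.7 FPKM in vehicle and 17.2, 27.6 and 33.5 FPKM with dexamethasone (-0.64 ± 0.05 SE, adjusted p = 0.0137). Libraries were ordered 1, 2, 3 from low to high under either treatment, so the groups overlapped while each pair fell. Lmna, which encodes lamin A and C of the nuclear envelope, fell by 0.58 (adjusted p = 0.0414) and Zyx, the focal adhesion protein zyxin, by 0.54 (adjusted p = 0.037). Fbn2, a fibrillin of the matrix, fell by 0.56 (adjusted p = 0.0266) and Mtss1, which bends membranes, by 0.57 (adjusted p = 0.0453). Cd44, the hyaluronan receptor, went from 28.5, 28.5 and 22.9 to 21.2, 19.2 and 16 FPKM, without overlap (-0.48 ± 0.05 SE, adjusted p = 0.0277). Wnt7b, a Wnt ligand, went from 39.7, 46.8 and 25.4 FPKM to 29.6, 32.8 and 14.9 FPKM (-0.55 ± 0.07 SE, adjusted p = 0.0414). The groups overlapped for Wnt7b, Mfap3l, Adam19, Lmna, Zyx and Fbn2 as they did for Sema6d, and not for Mtss1 and Cd44.

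The remaining 5 called falls described were in genes of chromatin, growth arrest and amino acid transport. The grouping of called genes in these paragraphs was made after their values were seen. Klf16, a Krüppel-like repressor, went from 5.58 ± 1.24 to 3.06 ± 1.06 FPKM (SD, n = 3; adjusted p = 0.0337), opposite to Klf9 and Klf13. Hdac9, a class II histone deacetylase, went from 7.11, 11 and 8.56 FPKM to 4.27, 6.54 and 5.09 FPKM (-0.65 ± 0.08 SE, adjusted p = 0.0337). Wiz, a zinc finger partner of the G9a methyltransferase, fell by 0.57 (adjusted p = 0.0452). Rprm, the p53 target reprimo, which can halt the cell cycle, was level across vehicle libraries at 25.3, 25.4 and 24.7 FPKM and stood at 12.2, 15.6 and 16.1 FPKM with dexamethasone (-0.75 ± 0.09 SE, adjusted p = 0.0335). Slc7a5, which brings large neutral amino acids into cells, went from 33.5 ± 7.19 to 23.5 ± 6.51 FPKM, with overlap (SD, n = 3, adjusted p = 0.0369). Of all 23 falls described, none was called without the block (adjusted p 0.0898 or more). None was called in any fit that left out a male library (adjusted p 0.058 to 0.227), and each kept its direction there. Armcx2, named after its values were seen and not among the 23, was the 1 fall called without the block. It was called in no fit that left out a male library.

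The AP-1 motif TGANTCA was in the promoter windows of 8 of the 30 genes called lower that could be matched (26.7%) and of 8 of the 70 called higher (11.4%). The shares were 5.58% of all members matched and 8.97% of all genes in the RefSeq table. The 8 genes called lower were Lmna, Slc7a1, Zyx, Adam19, Hdac9, Arl4a, Diras2 and Mef2c. Windows of the gene with the largest called fall and of a focal adhesion gene are shown, with the motif in capitals and otherwise as above.
Diras2, chr13:52530837-52531086, minus strand: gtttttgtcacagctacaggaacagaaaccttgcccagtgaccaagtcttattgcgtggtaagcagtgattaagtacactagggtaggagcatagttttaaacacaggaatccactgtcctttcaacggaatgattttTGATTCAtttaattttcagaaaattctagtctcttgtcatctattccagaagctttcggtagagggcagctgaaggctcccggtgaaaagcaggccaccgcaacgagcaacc
Zyx, chr6:42349578-42349827, plus strand: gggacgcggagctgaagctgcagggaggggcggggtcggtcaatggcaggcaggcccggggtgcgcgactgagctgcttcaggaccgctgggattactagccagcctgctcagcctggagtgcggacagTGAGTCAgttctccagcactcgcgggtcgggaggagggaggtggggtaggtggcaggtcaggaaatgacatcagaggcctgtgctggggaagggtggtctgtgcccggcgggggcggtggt
The motif starts 112 bases before the RefSeq start in Diras2 and 121 in Zyx, and a match is a description of the window, not a site of binding.

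Of 29 gene lists, the glucocorticoid-induced genes had the highest number of calls: 14 of 27 tested were called higher and none lower, where 0.805% of members were called higher and 0.388% lower. The list was drawn up with earlier results of these data known and is not independent evidence of its direction. Their median change was 1.35, and 25 of the 27 changed upward in value, 23 of them at an unadjusted p under 0.05. Without the block 11 of the 27 were called. Called members of this list were Fam107a, Hif3a, Zbtb16, Tsc22d3, Fkbp5, Klf9, Per1, Mt2, Nedd9, Mertk, Bcl2l1, Mt1, Errfi1 and Sdc4. Fam107a, Hif3a and Zbtb16 averaged under 1 FPKM in vehicle, so they could be members only by being higher with dexamethasone. The count of 14 and the median include them. Each of the other 28 lists had a median between -0.27 and 0.09. Among Krüppel-like and zinc finger factors, 3 of 18 were higher (Zbtb16, Klf9, Klf13) and Klf16 lower. Among genes of metabolism linked to glucocorticoids, 3 of 26 were higher (Mfsd2a, Ada, Lpin1) and Slc7a5 lower. Growth factor signalling gave 2 of 21 lower (Irs1, Hbegf), immediate early genes 2 of 27 lower (Egr1, Myc), and caveolae and connexins 2 of 21 higher, both of them focal adhesion genes (Ptk2b, Nedd9).

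Lists of cell identity and growth are read against the 1.19% of members called. Neural stem cell genes gave 2 of 28 higher (Hopx, Lfng) and 1 lower (Cd44), with a median of -0.19 and 20 of 28 values below 0. At an unadjusted p under 0.05 by limma, 10 of them were lower and 3 higher. Astrocyte genes gave 1 of 24 lower, Cd44 again, with a median of 0.09. Oligodendrocyte lineage genes (15), neuronal and synaptic genes (18) and the 4 hypothalamic patterning genes tested gave no call. Cell cycle and DNA replication genes gave 1 of 34, Myc, lower, with a median of -0.08 and 8 lower against 1 higher at that unadjusted p. Cdk4 was at 742 to 815 FPKM in vehicle and 787 to 809 FPKM with dexamethasone. Among 27 growth arrest genes, Sesn1 was called higher and Rprm lower, with 7 higher against 1 lower at that unadjusted p. Among the hypoxia genes, Hif3a and Adm were 2 higher of 23. Hif3a averaged under 1 FPKM in vehicle, so it could be a member only by being higher with dexamethasone. The glycolytic hypoxia gene Ldha was at 475, 255 and 405 FPKM in vehicle and 526, 236 and 442 FPKM with dexamethasone. Several lists held 1 gene called higher while most of their values lay below 0. In MAPK feedback this gene was Errfi1, with 14 of 21 values below 0, a median of -0.22 and 8 genes lower against 2 higher at an unadjusted p under 0.05. In Notch signalling it was Lfng, with 15 of 21 below 0, a median of -0.13 and 5 lower against 2 higher at that p. In extracellular matrix and adhesion it was Sdc4, with 20 of 31 below 0, a median of -0.10 and 4 lower against 1 higher. In Wnt signalling 1 of 24 was called lower, Wnt7b, with 20 of 24 below 0, a median of -0.24 and 10 lower against 1 higher. Bcl2l1 was the called gene of 24 in apoptosis and survival (median -0.03), Id1 of 20 in TGF-beta, BMP and Id genes (median 0.02), and Thrsp of 29 in cholesterol and fatty acid synthesis (median -0.01). Among cytokine and chemokine receptors, Mertk and Lifr were called higher of 23, with a median of -0.06. Heat shock, integrated stress response and NF-kB lists gave no call among 15, 23 and 19 genes. In bulk cultures, fewer cells of a type and less RNA per cell cannot be told apart.

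**Figure D4:**
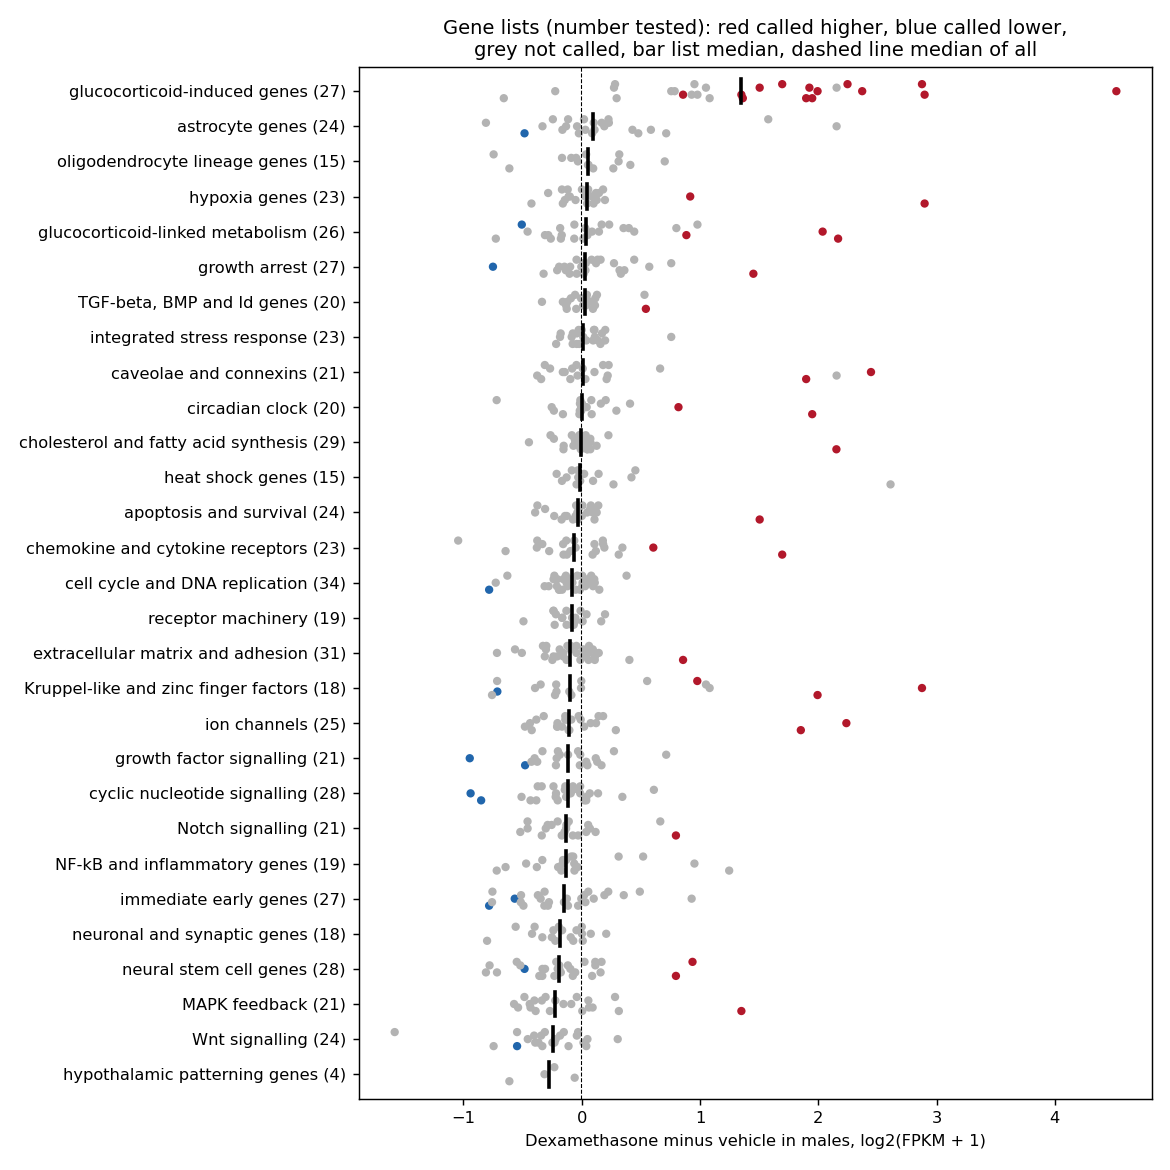
Change with dexamethasone in male cultures, on the log2(FPKM + 1) scale, for every tested member of 29 gene lists, with the number tested in parentheses; red points were called higher, blue lower, grey not called, black bars are list medians and the dashed line is the median of all members. The glucocorticoid-induced list has its median at 1.35 and 14 red points, while the other medians lie between -0.27 and 0.09. These red points include Fam107a, Hif3a and Zbtb16, which could be members only by being higher with dexamethasone.

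Several genes known as glucocorticoid targets were not called. Sgk1, a kinase that regulates ion channels, had 16.6, 31.3 and 16 FPKM in vehicle and 18, 23.7 and 11.9 FPKM with dexamethasone (-0.22 ± 0.14 SE, adjusted p = 0.479). Dusp1, the phosphatase that ends MAPK signals, had 6.12, 7.89 and 8.46 against 7.52, 10.8 and 9.68 FPKM (0.28 ± 0.09 SE, adjusted p = 0.223). The difference was large but uneven for Gjb6, the connexin 30 gene, listed at 0.0365, 0.0311 and 0.0540 FPKM in vehicle and at 7.87, 3.72 and 1.37 FPKM with dexamethasone (2.15 ± 0.48 SE, adjusted p = 0.124). The small heat shock gene Hspb1 was at 0.516, 0.146 and 0.317 FPKM against 17.8, 5.72 and 3.13 FPKM (2.61 ± 0.41 SE, adjusted p = 0.0593). Agt, the angiotensinogen gene of astrocytes, was at 14.7, 10.3 and 6.44 FPKM against 82.1, 25.1 and 15.1 FPKM (adjusted p = 0.125). In Gjb6, Hspb1 and Agt the groups did not overlap, as for 13.4% of all members. Dexamethasone library 1 was at least 2 times the next one in each. Gjb6 and Hspb1 averaged under 1 FPKM in vehicle, so they could be members only by being higher with dexamethasone. Klf15 averaged 5.11 ± 2.43 FPKM in vehicle and 12.3 ± 6.30 FPKM with dexamethasone (SD, n = 3; adjusted p = 0.0715), Bcl6 2.50 ± 0.109 and 6.49 ± 2.46 FPKM (adjusted p = 0.0593), and Nfkbia, the inhibitor of NF-kB, 18.2 ± 1.72 and 37.0 ± 10.5 FPKM (adjusted p = 0.0998). Cav1, which encodes the caveolar protein caveolin, was at 61.1, 36.3 and 25.2 FPKM in vehicle and 91.5, 42.8 and 58.4 FPKM with dexamethasone (0.66 ± 0.17 SE, adjusted p = 0.169).

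On the lower side, Wnt7a had the lowest estimate of any list member without a call. Its vehicle libraries held 15.7, 16.8 and 34.0 FPKM and its dexamethasone libraries 2.86, 6.92 and 11.7 FPKM, without overlap (-1.58 ± 0.24 SE, adjusted p = 0.0593). The chemokine receptor gene Cxcr4 was at 5.32, 7.30 and 9.38 FPKM against 3.06, 3.18 and 2.66 FPKM (-1.04 ± 0.23 SE, adjusted p = 0.118). The stem cell regulators Sox9 and Nr2e1 had values of the same sign. Sox9 averaged 15.8 ± 2.26 and 8.56 ± 1.29 FPKM (SD, n = 3, adjusted p = 0.146). Nr2e1, which keeps adult stem cells dividing, averaged 6.18 ± 0.857 and 3.17 ± 0.308 FPKM (SD, n = 3, adjusted p = 0.0593). The list of neural stem cell genes went both ways, with 20 of 28 values below 0 and 8 above. Its called members were Hopx and Lfng, higher, and Cd44, lower. Tnc, the matrix protein tenascin-C, was at 96.9, 144 and 262 FPKM in vehicle and 51.7, 86.8 and 181 FPKM with dexamethasone (adjusted p = 0.0586), and Ccnd2, cyclin D2, at 42.6, 115 and 112 against 26.3, 60.0 and 75 FPKM (adjusted p = 0.0793). Nkx2-2, a ventral patterning factor, averaged 9.88 ± 3.30 and 6.09 ± 1.90 FPKM (SD, n = 3; adjusted p = 0.0684).

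The 5 protein-coding loci left out had a male group wholly at 0, and such zeros may be failed estimates. Lcn2, the secreted siderophore-binding protein lipocalin 2, had no signal listed in vehicle (0 in each library) and 7.15, 2.06 and 0.539 FPKM with dexamethasone. Female cultures showed the same listing, 0 in every vehicle library and 4.47, 2.14 and 1.59 FPKM with the steroid. Lars2, the mitochondrial leucyl-tRNA synthetase, was listed at 0 in male vehicle libraries and at 503, 6604 and 2524 FPKM with dexamethasone, while all female libraries held 638 to 2222 FPKM. Gm11084, Gm17304 and Gm21836 switched between 0 and 216 to 471 FPKM from library to library within groups.

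Pairs were not equal. Pair 1 had the largest difference for 62 of the 85 genes called higher, pair 2 for 9 and pair 3 for 14, and the median difference of these genes was 1.13, 0.92 and 0.98 in pairs 1 to 3. For genes called lower the counts were 16, 18 and 7 of 41 and the medians -0.54, -0.58 and -0.52. The range between vehicle cultures exceeded the change for 20 of the 41 genes called lower and 7 of the 85 called higher, so that calls of falls rest more often on differences within pairs. Without the block 38 members were called (0.36% of members), 37 higher and 1 lower, and 36 of them were among the 126.

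Female cultures gave the same direction for all 126 genes, against 73.9% of all members. They share no library with the male comparison, though both enter 1 model and share its estimate of the spread. In 125 genes all 3 female pairs moved that way, against 38.2% of all members. The exception was Vars, a valyl-tRNA synthetase gene, with female pair differences of -0.18, -0.14 and 0.04 and male ones of -0.42, -0.47 and -0.49. Of the 126, 105 were also called in females, where 1.7% of members were called. With a shared spread, a male call favours genes whose female pairs also differ little among themselves. The counts of 125 and 105 therefore follow in part from the male calls. The median female change was 1.07 for genes called higher and -0.47 for genes called lower in males. Fam107a changed by 4.85 in females, Zbtb16 by 3.22, Fkbp5 by 2.59, Klf9 by 2.00 and Per1 by 1.88. For 10 of the 126 the difference between the sexes had an unadjusted p under 0.05, among them Slc7a5, at -0.51 in males and -0.11 in females (difference 0.39, adjusted p = 0.999). The difference between the sexes was not called for any member by limma (smallest adjusted p = 0.442; 0.0141% of all loci tested were called), with 302 of 10560 members at an unadjusted p under 0.05, and 0 were called without the block. A missed threshold does not show that the sexes respond alike.

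**Figure D5:**
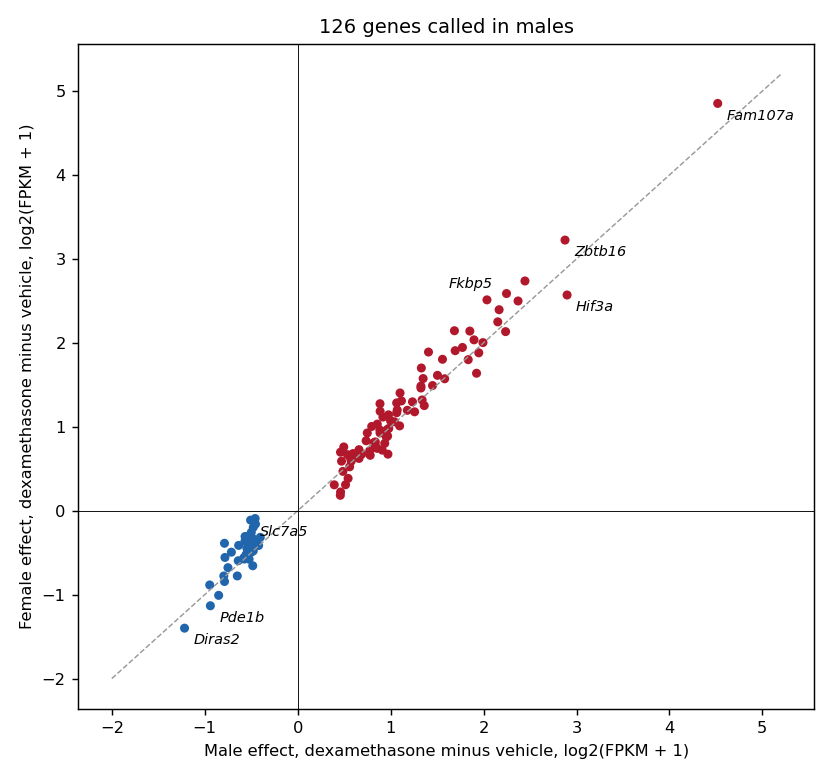
Change with dexamethasone in female against male cultures, on the log2(FPKM + 1) scale, for the 126 genes called in males; red points were called higher and blue lower, and the dashed line marks equal change. All points lie in the quadrants of equal direction, from Diras2 (-1.22 in males, -1.40 in females) to Fam107a (4.52 and 4.85).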

How the data were processed

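Total RNA of 12 neurosphere cultures was sequenced from stranded libraries, per the labels' protocols. The authors deposited FPKM values for each locus and library. They used Cuffdiff 2.2.1 with Cufflinks 2.2.1 and TopHat2 2.0.9, on build GRCm38, per the submitters' processing notes. Not given in the sources used here are the annotation, the strand setting and how libraries were scaled. Antisense and overlapping genes are therefore uncertain. Names turned into dates were restored for 24 loci, and 515 loci joining a protein-coding gene with others are not members.

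Groups came from the sample titles. The model was fitted to log2(FPKM + 1) by limma 3.58.1 (R 4.3.3), over all 12 libraries with 1 dexamethasone effect per sex, the replicate number within each sex as a block and a mean-variance trend. The test was two-sided with Benjamini-Hochberg adjustment over 14142 loci of all biotypes with a male mean of at least 1 FPKM and no male group at 0. The difference between the sexes is the interaction in that model. The labels number the replicates without saying what a number marks. The block was planned so that libraries of the same number are compared as pairs. Deviations from group means correlated within each number, with r of 0.508 to 0.615 in males and 0.365 to 0.563 in females, and at most -0.117 across numbers. Deviations within a group sum to 0, so positive values within numbers push those across numbers below 0. The values across numbers are therefore no separate check of the pairing. On simulated data with 14142 genes the male effect recovered 21.4%, 76.7% and 97.2% of log2 changes of 0.5, 1 and 2, and 5.52% of its calls were false. The simulation drew independent normal noise around pair means. It gave each changed gene the same change in all male pairs and none in females. Pairs were not equal in the data, so these shares are not error rates of the calls reported here.

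The rule for the members and the 29 gene lists were chosen with earlier results of these data known. Genes named are the 20 largest rises and falls called, the called members of each list with its most abundant and most changed other members, known targets, members left out for a group at 0 and the most abundant called genes. Others are said to be chosen after their values were seen. Alternatives were no block, male libraries alone, other pseudocounts, filters and scalings, robust moderation, and each library or pair left out. Gene coordinates, counted from 1, are those of GENCODE M21 (GRCm38) for the loci's Ensembl identifiers, and promoter windows are from RefSeq on GRCm38.p6.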

Additional observations from a re-analysis of the deposited data

Results flagged for a closer look

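The difference between the sexes passed the threshold at 2 of 14142 loci (0.0141%), both annotated as microRNA genes and neither a member. At Gm23632 (adjusted p = 0.0455) all 3 female dexamethasone libraries are listed at 0, female vehicle libraries held 10.9, 11.5 and 20.1 FPKM, and male libraries held 0, 11 and 9.53 FPKM in vehicle and 0, 10.9 and 11.8 FPKM with dexamethasone. At Gm22824 (adjusted p = 0.00656) the female dexamethasone libraries are again listed at 0, female vehicle libraries held 42.4, 44.5 and 38.9 FPKM, and male libraries 0, 42.5 and 73.7 FPKM in vehicle and 0, 42.1 and 45.5 FPKM with dexamethasone. Male pair 1 is at 0 under both treatments at either locus. Such zeros may be failed estimates, which was not tested.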

How the results depend on the processing

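All 126 genes kept their direction in every setting in which they were tested, and no value reversed. Without the replicate block 38 members were called, 37 higher and 1 lower, all 38 in the same direction in females. With male libraries alone and the replicate block, which leaves 2 residual degrees of freedom, 0 members were called (0 higher, 0 lower), with 1804 at an unadjusted p under 0.05 by limma. No filter on low values gave 61 calls (52 higher, 9 lower). Testing protein-coding loci alone gave 358 (197 higher, 161 lower), all 126 among them. Equal protein-coding totals gave 152 calls, 74 of them lower. Without male pair 1, 2 or 3 the counts were 9, 5 and 11, all higher and 0 lower, and all 5 without pair 2 moved the same way in females. Leaving out 1 male library gave 5 to 11 calls, 5 to 11 higher and 0 to 0 lower; where it left a pair with 1 library, that pair gave no estimate. Other pseudocounts, a mean of at least 5 FPKM, quantile normalization and robust moderation gave 136 to 141 calls. The interaction had 0 calls among members in each setting run, including each of the 12 libraries left out. Per1, Fkbp5, Klf9 and Chst2 were called without each of the 6 male libraries. With male libraries alone giving none, 0 genes were called under all 10 other settings. For single genes, calls were unchanged in 950 checks, lost in 589 and gained in 25. Depth is unknown, so no limit from counting can be given.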

Other observations

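Further called genes, chosen after their values were seen, fell into a few kinds. Chst2, a sulfotransferase that modifies keratan sulfate, had 28.0, 48.0 and 39.3 FPKM in vehicle and 92.4, 139 and 111 FPKM with dexamethasone, and rose by 1.56 ± 0.07 (SE, adjusted p = 0.00555). Smox, spermine oxidase, went from 28.2, 31.0 and 36.3 FPKM to 73.1, 103 and 72.0 FPKM, and Bcat1, which starts the breakdown of branched amino acids, from 11.3, 13.5 and 18.8 FPKM to 46.4, 31.5 and 41.7 FPKM. None of the 3 genes overlapped between groups. Pik3r1, the regulatory subunit of PI3-kinase that also restrains it, rose from 43.3, 59.3 and 48.8 FPKM to 91.4, 101 and 87.6 FPKM (adjusted p = 0.0337). Mxd4, a MAX partner that opposes Myc, rose from 19.4, 24.5 and 19.0 FPKM to 38.0, 39.1 and 32.2 FPKM (adjusted p = 0.0252). Sap30, a subunit of the Sin3 histone deacetylase complex, rose from 25.8, 23.8 and 20.9 FPKM to 57.4, 49.0 and 44.7 FPKM (adjusted p = 0.0137).

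Other called rises, chosen in the same way, were in matrix and membrane genes. Adamts9, a protease that cleaves proteoglycans, had 4.71, 5.73 and 6.28 FPKM in vehicle and 15.1, 15.3 and 15.8 FPKM with dexamethasone, nearly the same in all 3 cultures (1.33 ± 0.14 SE, adjusted p = 0.0252). Timp4, a metalloprotease inhibitor, went from 34.0, 31.6 and 21.0 FPKM to 63.7, 52.3 and 40.4 FPKM (adjusted p = 0.0137), and Col5a3, a collagen chain, from 2.09, 2.01 and 1.41 FPKM to 4.81, 3.71 and 2.89 FPKM (adjusted p = 0.0384). Pmp22, a membrane protein of myelinating cells, went from 9.44, 9.20 and 5.88 FPKM to 23.3, 17.4 and 15.1 FPKM (adjusted p = 0.0252). On the other side, Slc7a1, the carrier of cationic amino acids, fell by 0.48 (adjusted p = 0.041), Vars by 0.46 (adjusted p = 0.0413) and Mef2c, a neuronal transcription factor gene, from 14.9, 21.6 and 15.7 FPKM to 10.6, 13.9 and 11.8 FPKM (adjusted p = 0.0413).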
